A study of Rattus norvegicus with 56 samples.

Results

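The comparison described here sets liver RNA taken in the dark phase against liver RNA taken in the light phase in adult female rats that were growth-restricted before birth and then raised by dams on a fatty, fructose-rich diet. Its 8 libraries were chosen by their labels of sex, study group and time: 4 libraries at ZT16 and 4 at ZT4, of the 56 libraries in the study. ZT counts the hours from lights on under a cycle of 12 h light and 12 h dark, so ZT16 lies in the dark, when rats are active and feed, and ZT4 in the light, when they rest. The rats were Sprague-Dawley offspring whose livers were collected at day 180. In both groups of the comparison the dams had received 50% of their calories as chow from gestation day 10 until birth (IUGR), and after birth were moved to the HFhf diet, a Western diet given with 25% fructose in the drinking water. The labels do not say what the offspring ate after weaning, which litter each came from, whether liver was pooled, or when the animals last ate. The 3 further groups that serve for comparison are IUGR-HFhf males (4 libraries at ZT16 and 3 at ZT4), HFhf females, whose dams ate the HFhf diet from gestation day 11 (4 at ZT16 and 3 at ZT4), and CON females, whose dams ate regular chow (3 at each time). The source label names mouse liver while the organism label names the rat, and the gene symbols were read as those of the rat.

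The liver clock is a loop of transcription. A dimer of BMAL1 (encoded by Arntl) with CLOCK or its paralogue NPAS2 binds E-boxes and activates the period genes, the cryptochromes and the REV-ERB genes Nr1d1 and Nr1d2; PER and CRY proteins then block the dimer, and REV-ERB proteins repress Arntl and Npas2. The PAR bZIP factors DBP, TEF and HLF carry the rhythm to D-boxes in genes of metabolism and detoxification, and meals set the phase of the liver loop.

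The 8 libraries held 7.12 to 15.7 M counted reads (M, mega), with a median of 11.9 M at ZT16 and 10.3 M at ZT4, against 5.55 to 19.1 M over all 56. No library of the 8 had a read of the Y-linked gene Eif2s3y. All 10 hepatocyte markers were present in every library and none differed between the times; their summed level was 232187 to 337655 CPM (read counts per library scaled to a common total) at ZT16 and 210761 to 347000 CPM at ZT4. Libraries of 1 time differed from each other by more than sampling noise, with a chi-square per degree of freedom of 13.5 to 50.5. Since nothing says that the 4 animals of a time were from separate litters, the p-values measure the spread between samples only. That spread was estimated within the groups of all 56 libraries in 1 fit, not from these 8 libraries alone.

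ZT4 replicates 2 and 3 stood apart from the others. The summed level of 8 genes of pancreatic acinar cells, which make digestive enzymes, was 13.2, 1.64, 80.7 and 4.45 CPM in the ZT16 libraries, against 3.22, 578, 1790 and 11.0 CPM in the ZT4 libraries. The 2 acinar genes that passed the test followed those libraries: Cpb1, a carboxypeptidase, had 0.677, 1.19, 2.49 and 0.621 CPM at ZT16, against 0.140, 84.8, 283 and 4.80 CPM at ZT4. ZT4 replicate 2 was also high in skeletal muscle transcripts (a sum of 53.9 CPM, against 1.36 to 2.02 CPM in the other 3 ZT4 libraries and 1.02 to 1.76 CPM at ZT16), and ZT4 replicate 3 in stellate cell and adipocyte transcripts. The part of these transcripts in the results below was not tested.

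Of 11047 genes tested, 878 differed between ZT16 and ZT4 (7.95%; edgeR's quasi-likelihood test with Benjamini-Hochberg adjusted p under 0.05, as for all calls below): 466 were higher (4.22%) and 412 lower (3.73%) at ZT16. Among them, 60 genes were at least 2-fold higher (0.543%) and 63 at least 2-fold lower (0.57%). The median log2 fold change of all genes was -0.01, and the 95% interval of a gene's log2 fold change had a median half-width of 0.35. The CPM values of the 2 times did not overlap for 1409 of the genes tested (12.8%), 749 of them higher (6.78%) and 660 lower (5.97%) at ZT16. The number of calls changed with the libraries left out. It was 558 without ZT4 replicate 2 (5.06%; 2.49% higher and 2.57% lower) and 305 without ZT4 replicate 3 (2.77%; 1.41% higher and 1.36% lower). Without both it was 90 (0.804%, with 0.375% higher and 0.429% lower), of which 89 were among the 878. No other pair of libraries was left out, so the part of the smaller ZT4 group in this fall was not tested. Of the called genes named below from the gene lists or among the largest rises and falls, Cry1, Per2, Nr1d1, Npas2, Wee1, Lonrf3, Gckr, Irf7, Ifit2, Vdr, Acpp and Litaf were still called without both, and the calls of the others were lost. The number of calls was also lower without ZT16 replicate 1 (393), ZT16 replicate 2 (627) or ZT16 replicate 3 (595). It was 861 without ZT4 replicate 1, and it was higher without ZT4 replicate 4 (1004) or ZT16 replicate 4 (945). With each of the 8 libraries left out in turn, 223 genes were called every time (2.02%): 130 higher (1.18%) and 93 lower (0.842%).

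**Figure D1:**
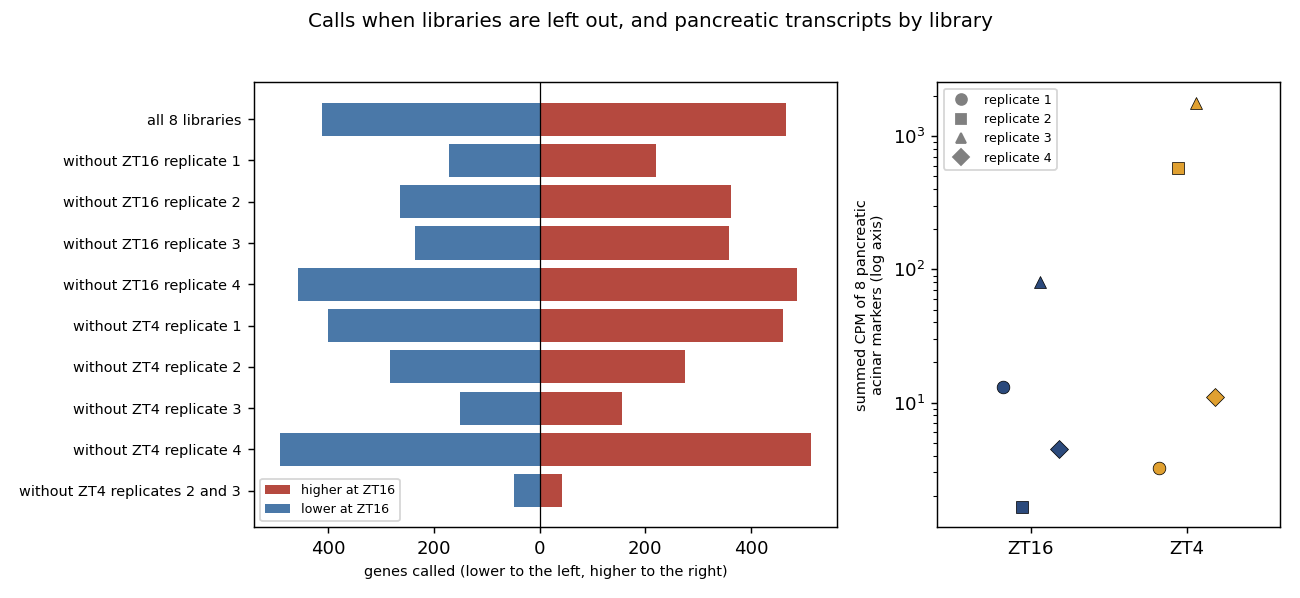
Left, genes called higher (red, to the right) and lower (blue, to the left) at ZT16 in IUGR-HFhf females with all 8 libraries, without each library and without 2 of them. Right, the summed CPM of 8 pancreatic acinar markers in each library on a log axis; ZT4 replicates 2 and 3 stand at 578 and 1790 CPM, above every other library, and leaving both out takes the calls to 42 higher and 48 lower.

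The repressors Cry1 and Per2 rose at ZT16, and Nr1d1 and Npas2 fell. Of 16 core clock genes tested, 2 rose and 2 fell at ZT16, against backgrounds of 4.22% and 3.73%. The same 4 genes, Cry1, Per2, Nr1d1 and Npas2, were called in each of the 8 fits that left out 1 library. Those fits kept the other groups. With only the 8 libraries fitted, Cry1, Per2 and Npas2 were called and Nr1d1 was not (edgeR adjusted p = 0.0664). That fit also called Per1 and Bhlhe40 (edgeR adjusted p = 0.0257 and 0.0490), which were not called with all libraries fitted. In the fit of all libraries the list's median log2 fold change was 0.24. Rora, Bhlhe41, Fbxl21 and Hlf were not analysed here.

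Among the repressors, Cry1, whose protein silences the BMAL1 dimer, had 19.02, 21.6, 19.5 and 25.3 CPM at ZT16, against 5.87, 7.71, 3.39 and 2.61 CPM at ZT4. The times did not overlap, and the 4 ZT16 libraries lay close together. The log2 fold change was 2.14 ± 0.27 (SE; edgeR adjusted p = 3.29e-06), the smallest p-value of all genes tested, and it was 2.36 without ZT4 replicates 2 and 3 (adjusted p = 2.75e-04).

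Per2, the cryptochromes' partner in repression, had 150, 118, 173 and 108 CPM at ZT16, against 37.3, 25.7, 7.83 and 16.1 CPM at ZT4, with a log2 fold change of 2.68 ± 0.38 (SE; edgeR adjusted p = 1.75e-05). Every ZT16 library was above every ZT4 library, and within ZT4 the lowest value, in replicate 3, was 4.77 times below the highest. Without ZT4 replicates 2 and 3 the log2 fold change was 2.37 (adjusted p = 0.00601). Per1 had 25.2, 35.1, 39.1 and 28.6 CPM at ZT16, against 12.6, 22.6, 12.0 and 10.8 CPM at ZT4, also without overlap, but its log2 fold change of 1.14 ± 0.47 did not pass (edgeR adjusted p = 0.122). Cry2, Timeless, Csnk1d and Csnk1e did not pass either, with log2 fold changes between 0.02 and 0.53.

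The REV-ERB gene Nr1d1 and its target Npas2 were both low at ZT16. Nr1d1 had 14.2, 6.10, 29.7 and 6.52 CPM at ZT16, against 120, 105, 42.96 and 79.99 CPM at ZT4, with a log2 fold change of -2.56 ± 0.48 (SE; edgeR adjusted p = 8.38e-04). Npas2 had 0.474, 2.68, 1.34 and 4.87 CPM at ZT16, against 13.8, 46.9, 51.3 and 24.7 CPM at ZT4, with a log2 fold change of -4.01 ± 0.63 (edgeR adjusted p = 8.35e-05). In neither gene did the times overlap. The end of Nr1d1 overlaps that of Thra on the other strand, and no source used here says whether the counting used strand. Without ZT4 replicates 2 and 3 both remained called, at -2.77 for Nr1d1 and -3.19 for Npas2.

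Arntl, which encodes BMAL1, overlapped between the times: it had 10.4, 14.1, 7.02 and 25.6 CPM at ZT16, against 12.0, 41.3, 40.2 and 25.6 CPM at ZT4. Its log2 fold change of -1.10 ± 0.51 did not pass (edgeR adjusted p = 0.173). The edgeR adjusted p was 0.0497 when the fit left out the libraries of IUGR-RC rats, whose dams returned to chow after the birth. Without ZT4 replicates 2 and 3 the log2 fold change of Arntl was -0.44 (edgeR adjusted p = 0.839), and 0 of the 8 fits without 1 library called it. Clock, its partner, had a log2 fold change of -0.12 and Nr1d2 one of 0.08, and neither passed. Bhlhe40, a helix-loop-helix repressor that also binds E-boxes, had 149 to 215 CPM at ZT16, against 69.0 to 134 CPM at ZT4 (log2 fold change 0.74 ± 0.28; edgeR adjusted p = 0.0912). Ciart, another repressor, was near the floor of detection with 0.414 to 2.87 CPM at ZT16 and 0.404 to 2.66 CPM at ZT4, and Nfil3, which competes with PAR bZIP factors for D-boxes, was -0.15 ± 0.2 on the log2 scale; neither passed.

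**Figure D2:**
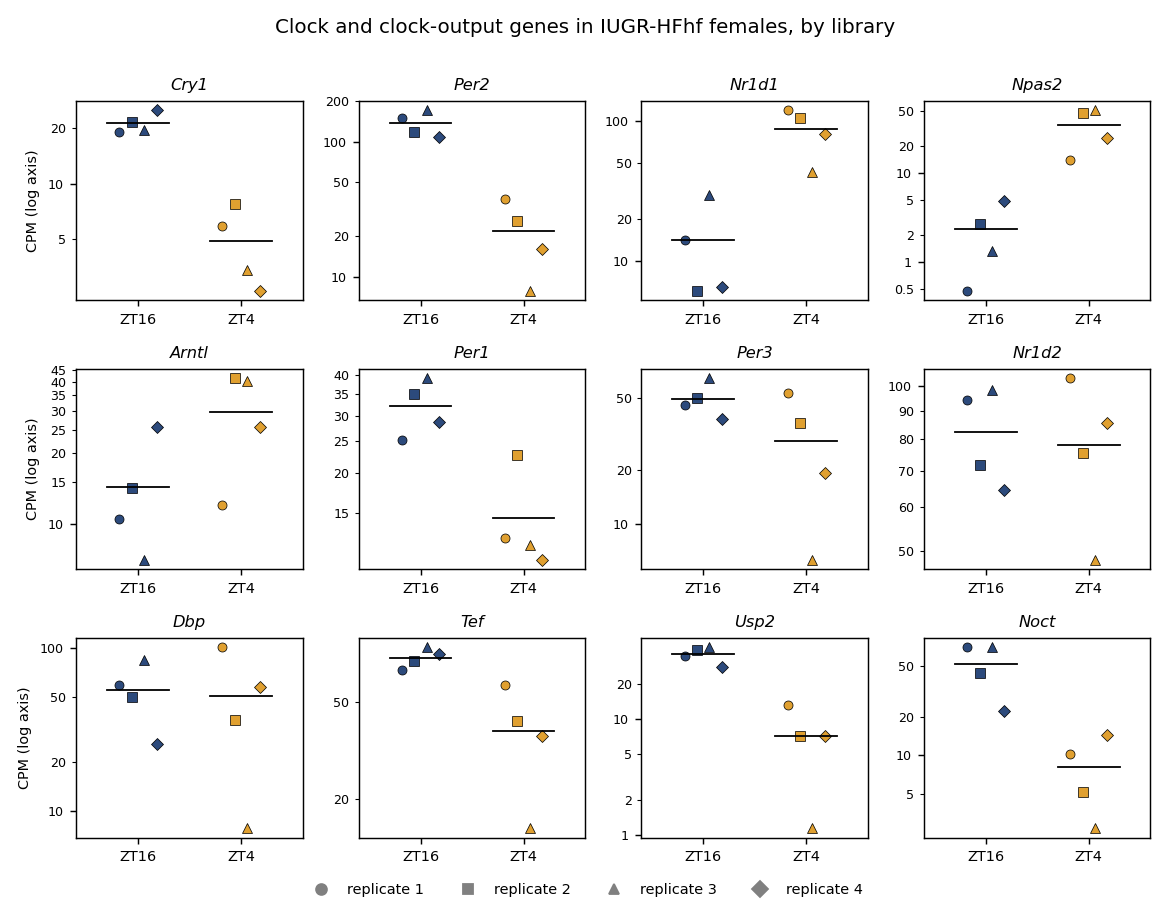
CPM on log axes of 12 clock and clock-output genes in each IUGR-HFhf female library, ZT16 left (blue) and ZT4 right (orange); symbols mark the replicate and lines the mean of 4. The 2 times do not overlap for Cry1, Per2, Nr1d1, Npas2, Per1, Tef, Usp2 and Noct, and they overlap for Arntl, Per3, Nr1d2 and Dbp.

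Since the loop acts through short DNA elements, the 250 bases before the start of a riser, Per2, an output factor, Tef, and the REV-ERB target Arntl (RefSeq's Bmal1) are shown, from RefSeq's GRCr8 assembly and 5′ to 3′ on the gene's own strand. Capitals mark a D-box (TTANGTAA) in Per2 (chr9:99496994-99497243, minus strand), an E-box (CACGTG) in Tef (chr7:115206577-115206826, plus strand) and a core of the element shared by ROR and REV-ERB proteins (TNGGTCA) in Arntl (chr1:176766078-176766327, plus strand).
Per2: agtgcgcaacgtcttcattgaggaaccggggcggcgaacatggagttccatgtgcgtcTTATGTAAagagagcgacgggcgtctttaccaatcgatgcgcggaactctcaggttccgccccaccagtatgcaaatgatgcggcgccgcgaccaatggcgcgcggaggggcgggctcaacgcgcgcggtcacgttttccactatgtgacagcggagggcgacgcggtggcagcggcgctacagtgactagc
Tef: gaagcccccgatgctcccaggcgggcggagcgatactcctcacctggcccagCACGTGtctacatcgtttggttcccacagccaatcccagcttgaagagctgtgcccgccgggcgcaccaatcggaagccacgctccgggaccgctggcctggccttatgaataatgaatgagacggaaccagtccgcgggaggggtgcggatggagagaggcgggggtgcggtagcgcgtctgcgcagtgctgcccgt
Arntl: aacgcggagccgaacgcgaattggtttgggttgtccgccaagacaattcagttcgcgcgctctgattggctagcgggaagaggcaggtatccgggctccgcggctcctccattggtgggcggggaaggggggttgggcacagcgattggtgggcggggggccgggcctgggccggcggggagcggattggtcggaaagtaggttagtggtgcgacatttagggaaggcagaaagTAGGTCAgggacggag
Both strands of windows of 250 bases before and 50 after the start were searched, and a match is a description of the letters only. The D-box letters were in 15 of 397 promoters of genes higher at ZT16 (3.778%), 1 of 335 promoters of lower genes (0.2985%), 99 of 8219 promoters of genes not called (1.205%) and 2.238% of all 33469 promoters in the table. The E-box letters were in 11.59% of promoters of higher genes, 12.24% of lower genes, 9.052% of genes not called and 6.418% of all. The REV-ERB core was in 9.32% of promoters of higher genes, 9.254% of lower genes, 10.12% of genes not called and 11.14% of all. Of the 19 clock genes looked up, 16 had a promoter in the table, and Cry1 and Csnk1d were among those without. Each promoter shown holds a match, which many clock genes lack. Clock, Npas2, Per3, Cry2, Nr1d1, Nr1d2, Csnk1e, Dbp and Nfil3 held none of the elements searched. The REV-ERB target Npas2 thus lacked the REV-ERB core, and Nr1d1 and Dbp lacked the E-box letters.

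Of 21 tested genes that carry the clock's output, 9 rose and 0 fell at ZT16, against 4.22% and 3.73% of all genes. The list's median log2 fold change was 0.57. The 9 were Wee1, Noct, Usp2, Coq10b, Por, Lonrf3, Tef, Alas1 and Gys2, and they include genes of cell-cycle control, protein turnover, glycogen and heme. The count was 6 without ZT4 replicate 2, 4 without ZT4 replicate 3 and 2 without both, when 2.49%, 1.41% and 0.375% of all genes were higher. Wee1, Noct, Usp2 and Coq10b were called in each of the 8 fits without 1 library. With only the 8 libraries fitted, Noct and Usp2 were not called (edgeR adjusted p = 0.0591 and 0.0617).

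Wee1, a kinase that holds cells back from mitosis, had 12.1, 14.3, 17.2 and 12.1 CPM at ZT16, against 3.08, 1.58, 1.696 and 3.13 CPM at ZT4, and was 2.58 ± 0.34 higher on the log2 scale (edgeR adjusted p = 5.62e-06; 2.16 without ZT4 replicates 2 and 3, adjusted p = 0.00723). Noct, the NADPH phosphatase nocturnin, had 70.5, 43.9, 69.9 and 22.2 CPM at ZT16, against 10.2, 5.18, 2.66 and 14.3 CPM at ZT4 (log2 fold change 2.71 ± 0.59; edgeR adjusted p = 0.00335). Both genes were separated between the times, Wee1 by a wide gap and Noct by a narrower one between ZT16 replicate 4 and ZT4 replicate 4.

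Usp2, a deubiquitinase, had 34.9, 38.98, 41.6 and 27.95 CPM at ZT16, against 13.1, 7.08, 1.13 and 7.10 CPM at ZT4 (log2 fold change 2.40 ± 0.48; edgeR adjusted p = 0.00157). Coq10b, a coenzyme Q-binding protein of mitochondria, rose by a log2 fold change of 1.71 ± 0.32 and Por, which passes electrons to the microsomal cytochromes P450, by 1.45 ± 0.36. The PAR bZIP factor Tef had 67.9, 73.6, 84.5 and 79.4 CPM at ZT16, against 58.9, 41.7, 15.1 and 36.4 CPM at ZT4 (log2 fold change 1.02 ± 0.31; edgeR adjusted p = 0.0348). Its times did not overlap, but of the 8 fits without 1 library only 1 called it.

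Dbp, the PAR bZIP factor best known for its daily rhythm in liver, had overlapping values at the 2 times. It had 59.4, 50.3, 85.2 and 25.99 CPM at ZT16, against 102, 36.1, 7.83 and 57.7 CPM at ZT4, with a log2 fold change of 0.14 ± 0.72 (95% interval -1.32 to 1.6; edgeR adjusted p = 0.933). The highest and the lowest of the 8 values were both at ZT4, 13.03-fold apart. Per3 likewise had 45.8, 50.3, 64.7 and 38.2 CPM at ZT16, against 53.7, 36.3, 6.30 and 19.1 CPM at ZT4 (log2 fold change 0.81 ± 0.52; edgeR adjusted p = 0.349).

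Several clock and output genes ordered the ZT4 libraries alike, and others did not. Replicate 1 was the highest and replicate 3 the lowest of the ZT4 libraries for Dbp, Tef, Per2, Per3, Nr1d1, Nr1d2, Usp2 and Por, and for Npas2 replicate 3 was the highest and replicate 1 the lowest. Per1, Cry1, Arntl, Clock and Noct had other orders: replicate 2 was the highest for Per1, Cry1, Arntl and Clock, and replicate 4 for Noct. On a log2 scale (pseudocount 0.5 CPM) the SD of Dbp was 0.71 at ZT16 and 1.55 at ZT4, and that of Per3 was 0.31 at ZT16 and 1.31 at ZT4. ZT4 replicate 3 is also the library with the most acinar transcripts, and the part of those transcripts in the spread was not tested.

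The time difference of these genes was then set beside that of the other groups, with the difference of the 2 effects tested in the same fit. Across all genes, 0 of 11047 passed against IUGR-HFhf males, HFhf females or CON females by edgeR, with 506, 450 and 606 genes at an unadjusted p under 0.05 and smallest adjusted p-values of 0.131, 0.361 and 0.131. DESeq2 called 2 genes against IUGR-HFhf males, 3 against HFhf females and 18 against CON females, among them acinar genes such as Cela1, Cela2a and Cpb1. The 95% interval of a gene's difference had a median half-width of 0.53 on the log2 scale.

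Dbp, Per3, Nr1d1 and Arntl were first set against CON females. In CON females Dbp had 75.2, 132 and 120 CPM at ZT16, against 3.61, 3.87 and 3.54 CPM at ZT4, a log2 fold change of 4.88 ± 1.002 (edgeR adjusted p = 0.00156). The effect in IUGR-HFhf females minus that in CON females was -4.75 ± 1.2 (95% interval -7.17 to -2.32; unadjusted p = 3.02e-04, edgeR adjusted p = 0.357, DESeq2 adjusted p = 0.0246; edgeR adjusted p = 0.0395 when the IUGR-RC libraries were left out of the fit). Without ZT4 replicates 2 and 3 it was -5.41 (edgeR adjusted p = 0.250). The 2 groups of females overlapped at ZT16, at 25.99 to 85.2 CPM in IUGR-HFhf and 75.2 to 132 CPM in CON, and all 4 ZT4 libraries of IUGR-HFhf females, at 7.83 to 102 CPM, lay above the 3 of CON females.

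Per3 had 75.9, 71.9 and 69.5 CPM at ZT16, against 3.51, 3.64 and 3.03 CPM at ZT4 in CON females, and a difference of effects of -3.60 ± 0.84 (edgeR adjusted p = 0.291, DESeq2 adjusted p = 0.0270; edgeR adjusted p = 0.0256 without the IUGR-RC libraries). Nr1d1 in CON females had 23.2, 32.3 and 34.97 CPM at ZT16, against 20.7, 25.4 and 19.8 CPM at ZT4, a log2 fold change of 0.45; the difference of effects was -3.02 ± 0.71 (edgeR adjusted p = 0.291, DESeq2 adjusted p = 0.0349). Arntl in CON females had 7.51, 2.68 and 2.37 CPM at ZT16, against 56.04, 52.2 and 57.9 CPM at ZT4, and the difference of effects was 2.57 ± 0.80 (edgeR adjusted p = 0.495). For Cry1 the difference was 1.30 ± 0.38 (edgeR adjusted p = 0.467), with the larger log2 fold change in IUGR-HFhf females, and for Per2 it was -0.39 ± 0.55. The differences of Dbp, Per3 and Nr1d1 were thus called by DESeq2 and not by edgeR in the fit of all libraries. Without the IUGR-RC libraries edgeR called those of Dbp and Per3 and not that of Nr1d1 (edgeR adjusted p = 0.0965).

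IUGR-HFhf males and HFhf females were then set beside them; HFhf males were not set beside them here. The log2 fold change of Dbp was 0.14 in IUGR-HFhf females, -1.06 in IUGR-HFhf males, 0.16 in HFhf females and 4.88 in CON females. By library, Dbp had 29.9, 12, 44.2 and 28.3 CPM at ZT16, against 24.9, 76.8 and 77.7 CPM at ZT4 in IUGR-HFhf males, and 16.3, 36.8, 53.6 and 43.6 CPM at ZT16, against 12.7, 13.8 and 73.2 CPM at ZT4 in HFhf females. The times thus overlapped in IUGR-HFhf females, IUGR-HFhf males and HFhf females, and in CON females they did not. The log2 fold change of Nr1d1 was -2.56 in IUGR-HFhf females, -4.04 in IUGR-HFhf males, -3.41 in HFhf females and 0.45 in CON females. It had 3.46 to 14.1 CPM at ZT16, against 91.7 to 165 CPM at ZT4 in IUGR-HFhf males, and 3.44 to 12.4 CPM at ZT16, against 73 to 129 CPM at ZT4 in HFhf females, so ZT16 replicate 3 and ZT4 replicate 3 of IUGR-HFhf females, at 29.7 and 42.96 CPM, lie between the ranges of those groups. The log2 fold change of Cry1 was 2.14 in IUGR-HFhf females, 2.23 in IUGR-HFhf males, 2.26 in HFhf females and 0.84 in CON females. The 95% interval of the Dbp difference was -0.97 to 3.37 against IUGR-HFhf males and -2.20 to 2.16 against HFhf females, so the values leave room for differences in either direction.

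**Figure D3:**
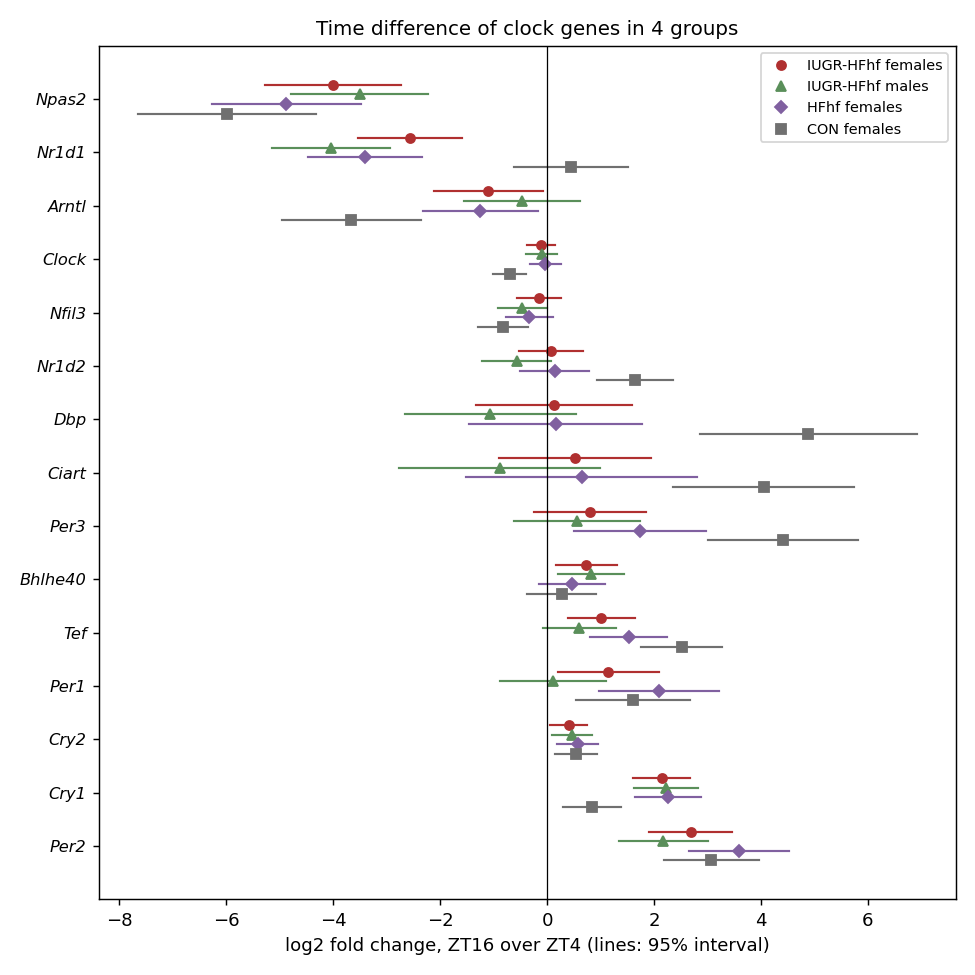
Log2 fold change of 15 clock genes, ZT16 over ZT4, in IUGR-HFhf females (red circles), IUGR-HFhf males (green triangles), HFhf females (purple diamonds) and CON females (gray squares); lines are 95% intervals. For Dbp, Per3, Nr1d1, Arntl and Cry1 the IUGR-HFhf females have intervals that do not overlap those of CON females, while for Per2 the 4 intervals overlap.

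The comparisons share no library, but they come from the same fit, with the same filter and the same estimate of each gene's spread. Their calls are thus linked. Of the 878 genes called in IUGR-HFhf females, 218 were also called higher and 176 lower in IUGR-HFhf males (1194 called, 10.8%; 5.78% higher and 5.03% lower), which is 46.8% and 42.7% of the genes higher and lower in IUGR-HFhf females and 34.2% and 31.7% of those in the males. With HFhf females (1011 called, 9.15%; 4.84% higher and 4.31% lower) 213 higher and 169 lower genes were shared, which is 45.7% and 41.02% of the genes in IUGR-HFhf females and 39.8% and 35.5% of those in HFhf females. With CON females (639 called, 5.78%; 2.35% higher and 3.43% lower) 116 higher and 130 lower genes were shared, which is 24.9% and 31.6% of the genes in IUGR-HFhf females and 44.6% and 34.3% of those in CON females. In each of the 3 pairs 0 genes were called in opposite directions.

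Chaperones of the heat shock response had the highest median of the lists in the plot of list members called. Of 19 heat shock and cold-inducible genes, 8 were higher and 1 lower at ZT16, against 4.22% and 3.73% of all genes. The list's median log2 fold change was 0.67, and 17 of the 19 had a positive fold change. The higher ones were Chordc1, Hsph1, Stip1, Ahsa1, Dnajb1, Hspd1, Dnaja1 and Hspa4l. The lower one was Cirbp, an RNA-binding protein induced by mild cold, at -0.72 ± 0.19 (edgeR adjusted p = 0.0124). The counts were 6 higher and 1 lower without ZT4 replicate 2, 5 and 0 without ZT4 replicate 3 and 0 and 0 without both, when the median was 0.52. Without both, 0.375% of all genes were called higher and 0.429% lower.

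Chordc1, a co-chaperone of HSP90, had 95.9, 62.9, 76.7 and 61.9 CPM at ZT16, against 34.3, 27.9, 21.2 and 33.6 CPM at ZT4 (log2 fold change 1.35 ± 0.25; edgeR adjusted p = 5.53e-04). Hsph1, which exchanges nucleotide on HSP70, had 165, 157, 191 and 230 CPM at ZT16, against 96.4, 116, 72.0 and 89.6 CPM at ZT4 (log2 fold change 0.99 ± 0.21; edgeR adjusted p = 0.00251). Neither gene overlapped between the times. Stip1, which links HSP70 to HSP90, and Ahsa1, which activates the HSP90 ATPase, were higher by 0.79 ± 0.19 and 0.63 ± 0.15 on the log2 scale. In the other groups the counts for the list were 9 higher and 1 lower in IUGR-HFhf males, 8 and 1 in HFhf females and 5 and 0 in CON females. The shares of all genes there were 5.78% higher and 5.03% lower, 4.84% and 4.31%, and 2.35% and 3.43%, in the same order. Hspa5, the chaperone of the endoplasmic reticulum, was 0.12 ± 0.19 higher (edgeR adjusted p = 0.741). Of 27 genes of the unfolded protein response 0 were higher and 1, Atf4, was lower (3.70%, against 3.73% of all genes).

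Of 28 interferon-stimulated genes tested, 0 rose and 6 fell at ZT16 (Ifit2, Ddx58, Irf7, Gbp5, Mx2 and Irf9), against 4.22% and 3.73% of all genes. The list's median log2 fold change was -0.54, and Stat2 alone had a positive one. The number that fell was 10 without ZT4 replicate 2, 2 without ZT4 replicate 3 and 2, Irf7 and Ifit2, without both. Of all genes, 2.57%, 1.36% and 0.429% fell in those 3 fits. Irf7, the transcription factor that amplifies interferon production, had 7.58, 4.61, 8.17 and 8.28 CPM at ZT16, against 34.1, 9.19, 23.4 and 11.0 CPM at ZT4 (log2 fold change -1.40 ± 0.35; edgeR adjusted p = 0.00991). Mx2, an antiviral GTPase, had 6.43, 6.10, 7.53 and 9.53 CPM at ZT16, against 43.8, 16.5, 33.5 and 14.4 CPM at ZT4 (log2 fold change -1.86 ± 0.48; edgeR adjusted p = 0.0129). In both genes the ZT16 libraries were close together and the high ZT4 values were those of replicates 1 and 3.

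Ifit2, which binds foreign RNA, had 26.6, 28.7, 27.1 and 23.5 CPM at ZT16, against 43.2, 37.1, 42.1 and 42.2 CPM at ZT4 (log2 fold change -0.64 ± 0.15; edgeR adjusted p = 0.00505), and Ddx58, the RNA sensor RIG-I, was -0.52 ± 0.12. These were the 2 interferon genes called in each of the 8 fits without 1 library. The same list had 1 higher and 2 lower genes in IUGR-HFhf males (median -0.29), 0 and 0 in HFhf females (median -0.09) and 1 and 2 in CON females (median 0.30). The shares of all genes there were 5.78% higher and 5.03% lower, 4.84% and 4.31%, and 2.35% and 3.43%, in the same order. The Irf7 effect in IUGR-HFhf females minus that in CON females was -1.98 ± 0.51 (edgeR adjusted p = 0.357, DESeq2 adjusted p = 0.0349). The 11 macrophage markers all had a negative fold change too, with a median of -0.42 and none called, and their summed level was 349 to 549 CPM at ZT16 and 433 to 741 CPM at ZT4; their part in the interferon result was not tested. In whole liver, fewer cells of a type and less RNA per cell cannot be told apart.

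For 2 genes of these lists the bases before the start are shown, chosen after their values were seen. Capitals in Hsph1 (chr12:10427118-10427367, plus strand) mark an E-box and then a heat shock element core (GAANNTTC), and in Irf7 (chr1:205800024-205800273, minus strand) an interferon response core (GAAANNGAA) that lies on the opposite strand; both are from RefSeq's GRCr8 assembly.
Hsph1: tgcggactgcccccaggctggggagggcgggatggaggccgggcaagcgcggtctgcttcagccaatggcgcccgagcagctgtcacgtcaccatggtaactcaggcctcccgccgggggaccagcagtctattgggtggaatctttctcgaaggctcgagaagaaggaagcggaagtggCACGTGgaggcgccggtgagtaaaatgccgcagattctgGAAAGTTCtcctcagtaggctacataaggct
Irf7: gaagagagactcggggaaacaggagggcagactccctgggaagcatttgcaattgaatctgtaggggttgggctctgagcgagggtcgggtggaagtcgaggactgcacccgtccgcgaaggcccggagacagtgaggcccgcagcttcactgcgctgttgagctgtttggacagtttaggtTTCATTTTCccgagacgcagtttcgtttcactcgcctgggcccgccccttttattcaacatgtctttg
The heat shock core was in 7.053% of promoters of genes higher at ZT16, 5.075% of lower genes, 5.779% of genes not called and 8.59% of all promoters. The interferon core was in 7.809% of promoters of higher genes, 8.06% of lower genes, 7.227% of genes not called and 9.713% of all.

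**Figure D4:**
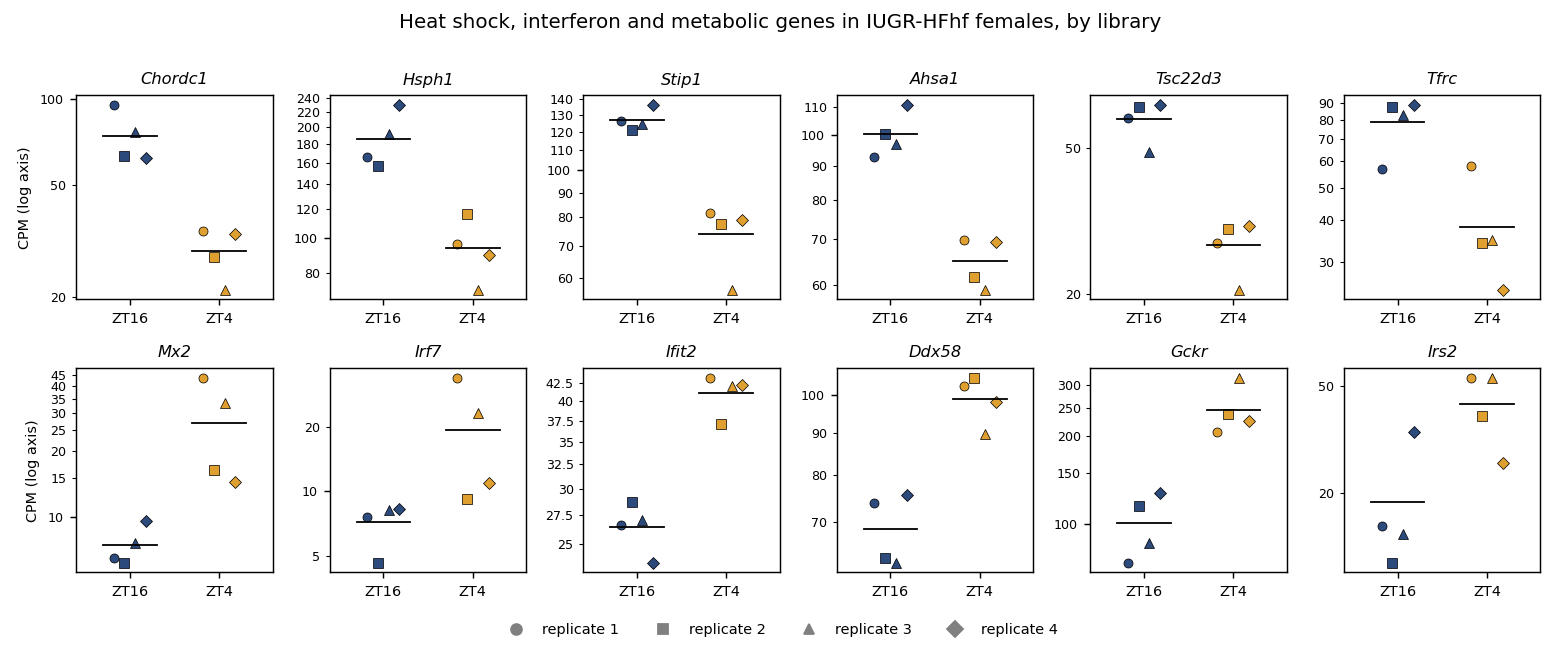
CPM on log axes of 12 genes in each IUGR-HFhf female library, ZT16 left (blue) and ZT4 right (orange), with the mean of 4 as a line. Upper row, the chaperones Chordc1, Hsph1, Stip1 and Ahsa1 with Tsc22d3 and Tfrc, higher at ZT16; lower row, the interferon genes Mx2, Irf7, Ifit2 and Ddx58 with Gckr and Irs2, lower at ZT16, where only Tfrc and Irs2 overlap between the times.

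Of 27 genes of cholesterol synthesis 2 rose and 0 fell (median 0.28), against 4.22% and 3.73% of all genes. Mvk, mevalonate kinase, rose by 0.50 ± 0.16 (edgeR adjusted p = 0.0462), and it was called in none of the 8 fits without 1 library. Of 24 genes of fatty acid and triglyceride synthesis 0 were called. Fasn, the fatty acid synthase, had 4910 to 13026 CPM at ZT16 and 3445 to 9390 CPM at ZT4 (log2 fold change 0.61 ± 0.43; edgeR adjusted p = 0.400), and the lipogenic activator Srebf1 was 0.24 ± 0.27.

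Of 20 genes of glucose and glycogen use, 3 rose and 2 fell, against 4.22% and 3.73% of all genes. Gckr, the protein that holds glucokinase in the nucleus, had 73.4, 115, 85.9 and 128 CPM at ZT16, against 206, 237, 317 and 226 CPM at ZT4 (log2 fold change -1.30 ± 0.24; edgeR adjusted p = 6.93e-04). The times were well apart, and Gckr remained called without ZT4 replicates 2 and 3 (-1.11, adjusted p = 0.0469). Gys2, the liver glycogen synthase, rose by 0.66 ± 0.20, Slc2a2, the glucose transporter GLUT2, by 0.61 ± 0.19 and Ppp1r3b, a subunit that targets phosphatase to glycogen, by 0.77 ± 0.24, while Pygl, the liver glycogen phosphorylase, fell by 0.44 on the log2 scale. None of these 4 was called without both ZT4 replicates 2 and 3 or in every fit without 1 library.

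Of 23 genes of glucose output and fasting, 0 rose and 1 fell, against 4.22% and 3.73% of all genes. Irs2, an adaptor of the insulin receptor, was the gene that fell. It had 15.2, 11.0, 14.2 and 33.8 CPM at ZT16, against 53.7, 38.8, 53.4 and 25.9 CPM at ZT4 (log2 fold change -1.21 ± 0.38, edgeR adjusted p = 0.0424), with ZT16 replicate 4 above ZT4 replicate 4. G6pc, the last enzyme of glucose release, had 171, 189, 186 and 638 CPM at ZT16, against 300, 324, 326 and 175 CPM at ZT4. The times overlapped through replicate 4 of both: ZT16 replicate 4 held the highest value, and ZT4 replicate 4 lay among the other ZT16 libraries. The log2 fold change of G6pc was 0.07 ± 0.53 (edgeR adjusted p = 0.953), against -2.75 in CON females, a difference of 2.82 ± 0.82 (edgeR adjusted p = 0.467). Pck1 was -0.02 ± 0.46.

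Fatty acid oxidation had 1 of 40 genes higher, Cpt2, a mitochondrial carnitine transferase, at 0.68 ± 0.18, and 0 lower; Cpt1a, the entry step, was -0.44 ± 0.30. Of 23 genes of bile acid synthesis and transport 0 rose and 1, the phospholipid pump Abcb4, fell by 0.62 on the log2 scale. Cyp7a1, the rate-limiting enzyme of bile acid synthesis, had 230, 480, 361 and 217 CPM at ZT16, against 178, 132, 43.5 and 158 CPM at ZT4. The times did not overlap, but the log2 fold change of 1.33 ± 0.56 did not pass (edgeR adjusted p = 0.129). Of 24 genes of circulating lipoproteins 0 rose and 1, Apoa5, fell by 0.49 on the log2 scale. For fatty acid oxidation, bile acids and lipoproteins the shares called were near or below those of all genes, 4.22% higher and 3.73% lower.

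Of 42 genes of drug metabolism, 5 rose and 1 fell, against 4.22% and 3.73% of all genes. The counts were 3 and 1 without ZT4 replicate 2 and 1 and 1 without ZT4 replicate 3. They were 0 and 0 without both, when 0.375% of all genes were called higher and 0.429% lower. Besides Por and Alas1, which also stand among the output genes, the xenobiotic receptor Nr1i2 (PXR) rose by 0.59 ± 0.17. Cyp1a1 had 3.18, 0.446, 2.11 and 3.21 CPM at ZT16, against 0, 0.211, 0.404 and 0.209 CPM at ZT4 (log2 fold change 3.27 ± 0.87; edgeR adjusted p = 0.0141; 0.156 without ZT4 replicates 2 and 3). Cyp2b1 had 2.84, 0.595, 0.638 and 3.83 CPM at ZT16, against 0.280, 0.106, 0.323 and 0.209 CPM at ZT4 (edgeR adjusted p = 0.0267); it has near-identical relatives whose reads the counting could have split, so its value is uncertain. Both were near the floor of detection at ZT4. Cyp2a1, another P450, fell by 0.58 on the log2 scale (adjusted p = 0.00963).

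Iron and heme gave 3 higher genes of 23 and 0 lower, against 4.22% and 3.73% of all genes. In this list 1 was higher without ZT4 replicate 2, 1 without ZT4 replicate 3 and 0 without both, when 2.49%, 1.41% and 0.375% of all genes were higher. Tfrc, the transferrin receptor, had 56.8, 87.3, 82.8 and 88.7 CPM at ZT16, against 58.3, 34.3, 35.05 and 24.7 CPM at ZT4 (log2 fold change 1.05 ± 0.26; edgeR adjusted p = 0.00808; 0.215 without ZT4 replicates 2 and 3), overlapping only where ZT16 replicate 1 met ZT4 replicate 1. Alas1, the first enzyme of heme synthesis, was 0.91 ± 0.28. Of 21 glucocorticoid targets 1 rose (4.76%, near the share of all genes). It was Tsc22d3 (GILZ), with 60.2, 64.4, 48.8 and 65.4 CPM at ZT16, against 27.6, 30.1, 20.5 and 30.7 CPM at ZT4 (log2 fold change 1.13 ± 0.26, edgeR adjusted p = 0.00561, and 0.154 without ZT4 replicates 2 and 3).

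Of 28 genes of cell division 7 rose and 0 fell (median 0.43), against 4.22% and 3.73% of all genes. The 7 were Wee1, Mcm6, Aurka, Mcm5, Pcna, Rrm1 and Ccne2. Mcm6, of the replicative helicase, had 10.2, 9.82, 19.6 and 10.6 CPM at ZT16, against 5.04, 3.38, 4.44 and 3.03 CPM at ZT4 (log2 fold change 1.67 ± 0.34; edgeR adjusted p = 0.00168). The count was 2 without ZT4 replicate 2, 2 without ZT4 replicate 3 and 1, Wee1, without both, when 2.49%, 1.41% and 0.375% of all genes were higher. Of 42 subunits of oxidative phosphorylation 6 rose and 0 fell, against 4.22% and 3.73% of all genes. The 6 rose by small amounts, such as 0.38 ± 0.10 for Uqcrfs1 and 0.39 ± 0.11 for Ndufa8, and 37 of the 42 were positive. In this list 0 were called without ZT4 replicate 2 and 1 without ZT4 replicate 3, when 2.49% and 1.41% of all genes were higher. The same list had 22 higher in IUGR-HFhf males, 0 in HFhf females and 0 in CON females, where 5.78%, 4.84% and 2.35% of all genes were higher. Of 52 ribosomal proteins 0 were called, and of 28 genes of ribosome biogenesis 3 rose and 1, Ubtf, fell.

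Of 30 acute phase and coagulation genes 0 rose and 3 fell, against 4.22% and 3.73% of all genes. Each fell by a small amount: Cfb by 0.36, Itih3 by 0.31 and Plg by 0.31 on the log2 scale. Of 26 genes of the growth hormone axis 0 rose and 2 fell: Stat5b, the factor that relays growth hormone, had 29.9, 27.8, 25.7 and 30.2 CPM at ZT16, against 34.8, 53.7, 53.1 and 46.99 CPM at ZT4 (log2 fold change -0.73 ± 0.15; edgeR adjusted p = 0.00173; 0.172 without ZT4 replicates 2 and 3), and Igfbp3, a carrier of IGF1, fell by 0.78. The list had 1 lower gene without ZT4 replicate 3, Stat5b, and 0 without both. Of 20 autophagy and lysosome genes 0 rose and 2, Gabarapl1 and Ctsb, fell. Of 9 stellate cell markers 0 rose and 2 fell, 5 were positive and the median log2 fold change was 0.02. Pdgfrb and Col3a1 fell by 0.97 and 0.53 on the log2 scale, and their highest values were in ZT4 replicate 3, the library with the most stellate transcripts (490 CPM summed, against 366 to 377 CPM in the other 3 ZT4 libraries and 278 to 333 CPM at ZT16). Neither was called without ZT4 replicate 3 (edgeR adjusted p = 0.0911 and 0.235). Cdh5, of endothelium, fell by 0.44. Without ZT4 replicates 2 and 3, 0 genes were called in the lists of cholesterol synthesis, glucose output and fasting, fatty acid oxidation, bile acids, lipoproteins, glucocorticoid targets, oxidative phosphorylation, ribosome biogenesis, the acute phase, autophagy, stellate cells and endothelium. In that fit only 0.375% of all genes were called higher and 0.429% lower. At such shares 0 calls is usual for lists of this size and says little about the list.

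**Figure D5:**
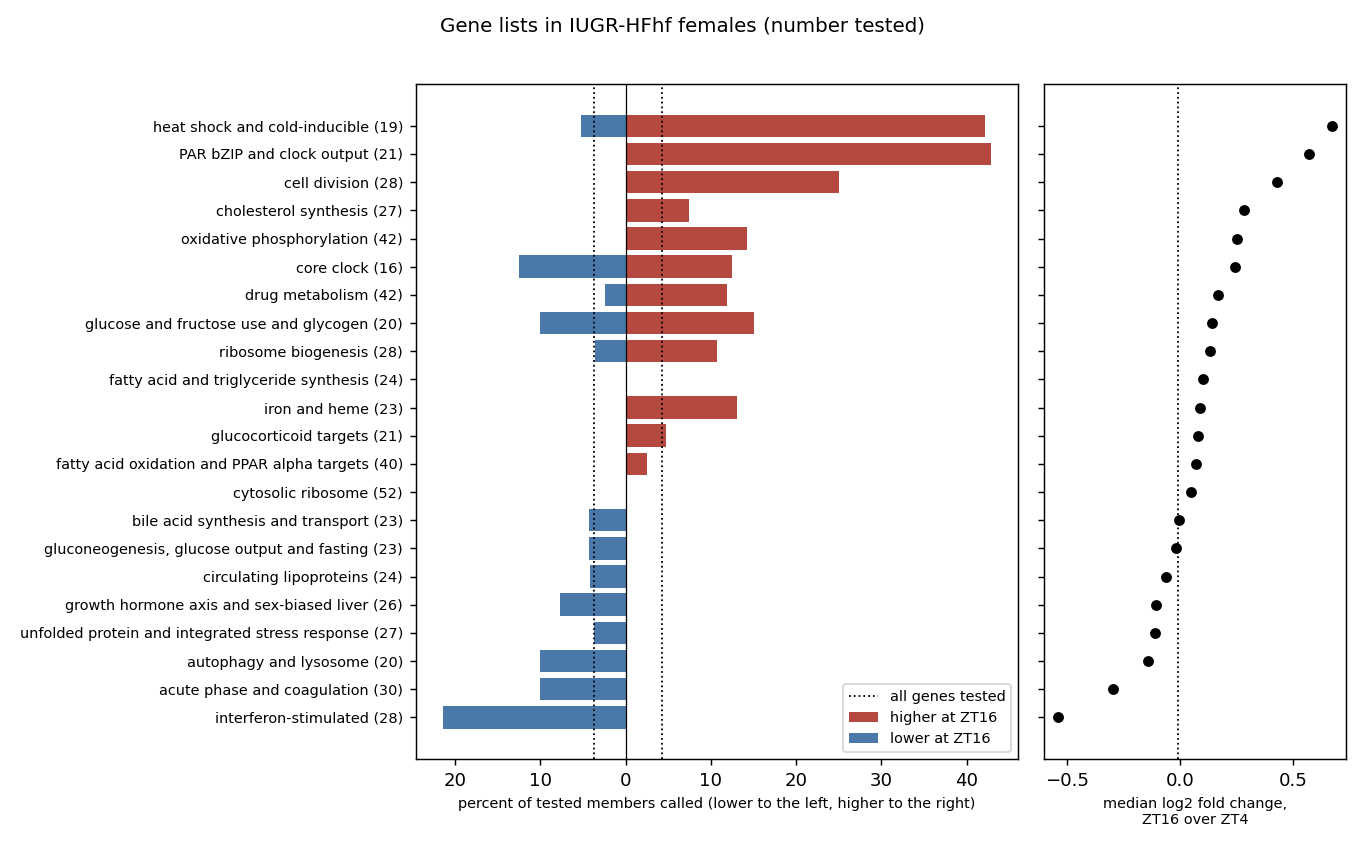
Left, percent of the tested members of each gene list called higher (red, to the right) or lower (blue, to the left) at ZT16 in IUGR-HFhf females, with the number tested in brackets and dotted lines at the shares of all genes, 4.22% and 3.73%. Right, the median log2 fold change of each list, ZT16 over ZT4, which runs from -0.54 for interferon-stimulated genes to 0.67 for heat shock genes.

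Of the called genes that averaged 1 CPM or more and did not overlap between the times, the 12 largest rises were those of Cyp1a1, Nrg4, Cyp2b1, Noct, Per2, Zfp354a, Vdr, Wee1, Nat8, Usp2, Cry1 and Epm2a, and the 12 largest falls those of Npas2, Ptk6, Acpp, Nr1d1, Atp2b2, Mx2, Litaf, Loxl4, Cyfip2, Emb, Chka and Arid3a. The 24 were chosen for their size, so their values are a description. Clock and output genes account for 5 of the rises and 2 of the falls. Nrg4, a ligand of the ERBB4 receptor, had 0.677, 2.83, 4.595 and 3.42 CPM at ZT16, against 0.140, 0.423, 0.162 and 0.522 CPM at ZT4 (log2 fold change 3.15 ± 0.83; edgeR adjusted p = 0.241 without ZT4 replicates 2 and 3). Vdr, the vitamin D receptor, had 10.6, 9.07, 9.70 and 7.97 CPM at ZT16, against 0.280, 1.37, 0.808 and 3.45 CPM at ZT4 (log2 fold change 2.63 ± 0.46). Epm2a, the glycogen phosphatase laforin, had 4.602, 4.02, 5.36 and 4.14 CPM at ZT16, against 2.24, 1.06, 0.727 and 0.627 CPM at ZT4 (log2 fold change 2.04 ± 0.38; edgeR adjusted p = 0.0823 without ZT4 replicates 2 and 3). In all 3 the lowest ZT16 library exceeded the highest ZT4 library, and Vdr was still called without ZT4 replicates 2 and 3 (adjusted p = 0.0495).

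Like Per2, Nrg4 holds a D-box before its start, here on the opposite strand (chr8:64555174-64555423, minus strand, RefSeq's GRCr8 assembly), in capitals below.
Nrg4: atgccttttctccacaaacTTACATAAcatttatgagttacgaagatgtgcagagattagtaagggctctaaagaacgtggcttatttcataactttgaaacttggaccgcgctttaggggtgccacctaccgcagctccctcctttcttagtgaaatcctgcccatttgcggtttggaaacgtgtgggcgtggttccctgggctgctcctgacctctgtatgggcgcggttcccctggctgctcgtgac
Among the falls, Acpp, an acid phosphatase, had 2.57, 3.27, 1.85 and 3.93 CPM at ZT16, against 11.7, 19.02, 26.5 and 15.1 CPM at ZT4 (log2 fold change -2.69 ± 0.34; edgeR adjusted p = 3.42e-06). Litaf, a membrane protein of endosomes, had 24.8, 34.1, 33.2 and 34.7 CPM at ZT16, against 69.8, 125, 133 and 115 CPM at ZT4 (log2 fold change -1.81 ± 0.29; edgeR adjusted p = 1.02e-04). Both were called in each of the 8 fits without 1 library and without ZT4 replicates 2 and 3, at -2.26 for Acpp and -1.55 for Litaf. Chka, a choline kinase, had 28.6, 25.0, 24.2 and 32.2 CPM at ZT16, against 34.97, 73.1, 118 and 80.5 CPM at ZT4 (log2 fold change -1.48 ± 0.36; edgeR adjusted p = 0.253 without ZT4 replicates 2 and 3), its highest value again in ZT4 replicate 3. Nat8, like Cyp2b1, has near-identical relatives, and its rise is uncertain for that reason.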

How the data were processed

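Liver RNA of 56 rats was sequenced, and the deposited table holds whole-number read counts of 17337 genes, not normalized. Per the submitters' processing notes, FastQC, STAR, featureCounts of Subread, DESeq2 and the rn6 build were used; their versions and settings are not given in the sources used here. The deposited counts were used as they stand; 26 symbols had been turned into dates and were not named. Samples were grouped by the labels of sex, time and study group. In R 4.3.3, edgeR 4.0.16 fitted 1 mean per group over all 56 libraries (TMM scaling, filterByExpr, robust quasi-likelihood, 40 residual degrees of freedom), and p-values were adjusted by Benjamini-Hochberg over 11047 genes. CPM are TMM-scaled; the SE of a log2 fold change was taken from its F statistic. DESeq2 1.42.0, other scalings, filters and sample sets were alternatives. The code was checked on simulated counts. Members and gene lists were chosen with earlier results of these data known. Named genes are the clock genes, the 12 largest changes in each direction (mean of at least 1 CPM, no overlap, not a provisional symbol) and the 4 called genes of smallest p in each list; others named were chosen after their values were seen. Some genes that the rule names are not reported here, though the list counts include them.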

Additional observations from a re-analysis of the deposited data

Results flagged for a closer look

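In 16 of 196 groups of 4 libraries tested, 1 library lay far from the other 3; chance does so in about 1 of 20 groups. For 7 of them the library was ZT4 replicate 2 or 3: Per1 in ZT4 replicate 2 (22.6 CPM, the others 10.8 to 12.6), Csnk1d in ZT4 replicate 2 (89.2 CPM), Emb in ZT4 replicate 3 (4.52 CPM), Stip1 in ZT4 replicate 3 (56.7 CPM, the others 77.6 to 81.8), and the summed markers of skeletal muscle in ZT4 replicate 2 (53.9 CPM) and of stellate cells (490 CPM) and adipocytes (57.1 CPM) in ZT4 replicate 3. In the other ZT4 libraries, Nat8 stood out in replicate 1 (8.11 CPM, the others 0.888 to 1.88), and Cyfip2 (11.5 CPM) in replicate 4. At ZT16, Litaf was low in replicate 1 (24.8 CPM), Zfp354a was high in replicate 2 (137 CPM, the others 48.7 to 60.1), as were the erythroid markers (269 CPM summed), Mcm6 (19.6 CPM, the others 9.82 to 10.6) and the acinar markers (80.7 CPM summed) were high in replicate 3, and Ctsb (611 CPM) and the skeletal muscle markers (1.76 CPM summed) were high in replicate 4.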

How the results depend on the processing

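The higher and lower counts in IUGR-HFhf females were 250 and 201 with only the 8 libraries fitted, 740 and 653 without the IUGR-RC libraries, and 42 and 48 without ZT4 replicates 2 and 3, a setting added after the data were seen; with 1 library left out they ranged over 155 to 513 and 150 to 491. Totals were 873 with RLE scaling, 895 with upper quartile scaling, 726 without a filter, 875 with a minimum of 1 CPM in 4 libraries, 723 without 4 libraries doubted from earlier results (ZT4 replicate 2 here and 3 libraries of other groups) and 1090 with DESeq2, of which 860 were among the 878. With 1 library left out the counts were 212 to 652 and 303 to 588 in IUGR-HFhf males, 168 to 550 and 211 to 526 in HFhf females and 122 to 259 and 176 to 390 in CON females, where 422 were higher without the IUGR-RC libraries; the lowest counts came without ZT4 replicate 3 in the males, ZT4 replicate 1 in HFhf females and ZT16 replicate 3 in CON females. Differences of the time effect gave 2 higher and 2 lower genes against CON females without the IUGR-RC libraries; DESeq2 gave 2 higher and 16 lower against CON females, 3 lower against HFhf females and 2 lower against IUGR-HFhf males, and leaving out 1 library gave 0 to 1. The cause was not tested. Of the named genes' values under other settings, 1046 kept their call, 119 lost it, 9 gained one and 0 reversed; with 1 library left out 1318 kept it, 149 lost it and 2 gained one. No paired analysis was possible because the replicate numbers are in accession order and pair no samples.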

Other observations

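The genes with the smallest p-values, named here after their values were seen, include several outside the clock. Mov10, an RNA helicase, had 9.001 to 13.7 CPM at ZT16 and 27.6 to 34.97 CPM at ZT4 (log2 fold change -1.33 ± 0.17; edgeR adjusted p = 3.42e-06). Thra, the thyroid hormone receptor alpha, averaged 4.66 ± 0.43 CPM at ZT16 and 10.9 ± 0.88 CPM at ZT4 (SD, n = 4 each; edgeR adjusted p = 5.94e-06). Odc1, the first enzyme of polyamine synthesis, averaged 88.0 ± 14.3 CPM at ZT16 and 42.9 ± 8.44 CPM at ZT4 (SD, n = 4 each; edgeR adjusted p = 9.70e-06). Thra shares its locus with Nr1d1, which lies on the opposite strand, and no source used here states whether the counting used strand, so reads of the overlap cannot be assigned. Angel2, Lmo7, Slc35d1 and Mapre2 were higher by 0.88, 1.54, 0.94 and 1.02 on the log2 scale, and Coro1c and Pcbp4 lower by 1.09 and 1.04. Every gene named in these sentences was called in each of the 8 fits without 1 library and without ZT4 replicates 2 and 3.

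Psmb9, a subunit of the immunoproteasome, averaged 16.3 ± 2.09 CPM at ZT16 and 32.9 ± 2.72 CPM at ZT4 (SD, n = 4 each; log2 fold change -1.01 ± 0.17, edgeR adjusted p = 1.63e-04), and Tapbp, which loads peptides onto MHC class I, was lower by 0.63. Both were chosen after their values were seen and remained called without ZT4 replicates 2 and 3.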
